A study of Drosophila melanogaster with 7 samples.

Results

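The secretion factor, receptors, transducers and feedback inhibitors of Wingless signalling were followed in the wing discs of Drosophila melanogaster larvae in the third instar, the epithelial sacs that form the wing and the back of the thorax of the adult. The 10 genes wls, fz2, fz3, arr, Axn, Apc, arm, pan, nkd and Notum were chosen by their symbols, for their roles in the pathway, out of 17208 genes in the table. All 10 passed the filter on low counts that left 9294 genes to be tested. RNA sequencing gave 7 libraries, 3 from wild-type discs (WT, library names with w1118) and 4 from discs of the ds38k genotype, an allele of dachsous (ds), which encodes an atypical cadherin that binds Fat. Beyond ds38k and w1118 the labels name no allele or treatment, but every WT library name also holds the term csvd111, which no source used here explains. The ds38k library names hold neither w1118 nor csvd111, so a strain background shared by the groups is not shown. The labels do not say whether the larvae carried 1 or both copies of the allele, which sex they had or how many discs were pooled. Whether WT and ds38k libraries were prepared together is not given, so that preparation and genotype cannot be told apart. Separate animals or dissections are not stated, and the p-values thus rest on the spread between libraries, which may be technical.

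Wingless is a secreted Wnt protein that patterns the wing disc and supports growth of the wing field. The carrier Wntless (wls) brings it to the cell surface, where it binds Frizzled receptors (such as fz2) together with the co-receptor Arrow (arr). Without ligand, Axin (Axn) and Apc hold a complex that marks beta-catenin (arm) for destruction. With ligand, Armadillo accumulates, enters the nucleus and joins the DNA-binding factor Pangolin (pan), the fly TCF. The genes fz3, nkd and Notum are known as targets that Wingless induces and whose products damp the signal, whereas fz2 is known to be repressed by Wingless in the wing disc.

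Total counts ran from 21438650 to 31718949 per library in WT and from 25192573 to 31142008 in ds38k. Transcripts of ds were at 1422 to 1701 CPM (counts scaled to the library size with TMM factors) in WT and at 161 to 229 CPM in ds38k. Annotated rRNA genes took 0.839% to 1.50% of the WT counts and 11.4% to 15.2% of those in ds38k. Most of the rRNA counts in ds38k, on average, came from the gene 28SrRNA:CR45837, which had no counts in WT. Whether RNA selection or quantification differed between the groups was not tested. Fold changes also ran with transcript length. The median log2 fold change of ds38k over WT was 0.92 in the shortest of 10 equal length classes and -1.57 in the longest. Fold changes are therefore given as measured and again with the length trend of each library removed, a correction that also removes any real change that runs with length. For ds itself (12280.5 bases at the median) the log2 fold change was -2.95 ± 0.14 (SE) as measured and -1.19 ± 0.08 with the trend removed. Upper-quartile scaling moved the median log2 fold change of all tested genes from 0.07 to 0.33, and the share of higher among called genes from 52.7% to 63.9%.

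All 10 markers of wing disc identity had counts in both groups. Their summed level was 3101 to 4086 CPM of the total count in WT and 1236 to 1565 in ds38k, and 7 of 10 were called lower and 1 higher. Summed pouch markers stood at 2030 to 2688 CPM in WT and 463 to 918 in ds38k (6 of 8 lower), hinge markers at 2354 to 3731 and 1159 to 1417 (4 of 6 tested lower), and notum markers at 680 to 842 and 319 to 480 (1 of 9 lower, 1 higher). Fewer cells of a region and less RNA per cell cannot be told apart in such whole-disc libraries. These sums are also not corrected for the length trend, whose part in them was not tested. The median log2 fold changes of these lists, in the order given, were -1.16, -1.24, -1.24 and -1.03 as measured. With the length trend removed they were -0.40, -0.55, -0.23 and -0.43. Of the tissues that can adhere to a disc, fat-body markers ran from 45.5 to 134 CPM in WT and from 81.6 to 3070 CPM in ds38k (7 of 8 higher), and salivary gland markers from 0.149 to 12.8 and from 0.353 to 1231 CPM (3 of 6 tested higher). In both lists ds38k replicate 4 had the lowest sum of its group, as it did for the muscle, haemocyte and tracheal markers below. It had the highest sum of its group for wing disc identity, pouch, notum, myoblast, and neuronal and glial markers. Muscle markers stood at 83.1 to 97.6 and 48.4 to 423 CPM (5 of 7 tested higher), myoblast markers at 342 to 425 and 183 to 260 (2 of 7 higher, 2 lower), and tracheal markers at 715 to 976 and 633 to 722 (1 of 5 lower). Haemocyte markers stood at 69.3 to 155 and 54.6 to 120 CPM (1 of 7 higher, 1 lower) and neuronal and glial markers at 62.8 to 86.3 and 25.3 to 43.3 (2 of 3 tested lower, 1 higher). These calls stand beside 34.2% of all tested genes called higher and 30.8% called lower. With the length trend removed the lists of wing disc identity, pouch and hinge had 4, 3 and 3 markers called lower and 1, 0 and 1 higher, and the notum list 1 lower and 2 higher, where 19.1% of all genes were called lower and 27.6% higher. Of the other lists 7 fat-body, 2 salivary gland, 6 muscle, 2 myoblast, 1 tracheal and 1 neuronal or glial marker were then higher, 1 neuronal or glial marker was lower, and the haemocyte markers were not called. No marker of any of these lists was at 0 in every library of a group, and the part of these tissues in the results below was not tested.

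In ds38k discs the transcripts of the receptor fz2 and of the scaffold Axn fell most among the 10 genes, 11.3-fold and 6.87-fold. Apc fell 4.27-fold, pan 2.90-fold, arr 2.52-fold and nkd 2.05-fold, while Notum rose 1.55-fold. The transcripts of wls, fz3 and arm did not pass the test. At an adjusted p under 0.05 (edgeR quasi-likelihood test) 6 of the 10 were thus lower and 1 was higher, where 30.8% of all tested genes were called lower and 34.2% higher. The 7 called members stand beside 65.0% of all genes called in either direction, a share close to theirs (46.7% of genes, beside 5 members, with the length trend removed). The groups' ranges did not overlap for 7 of the 10, beside 66.4% of all tested genes. The median log2 fold change was -1.19 over the 10 genes and 0.07 over all tested genes. Once the length trend was removed 3 were lower (fz2, Axn and Apc), beside 19.1% of all genes, and 2 were higher (Notum and arm), beside 27.6%. The median of the 10 was then 0.03, beside 0.06 over all genes.

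**Figure D1:**
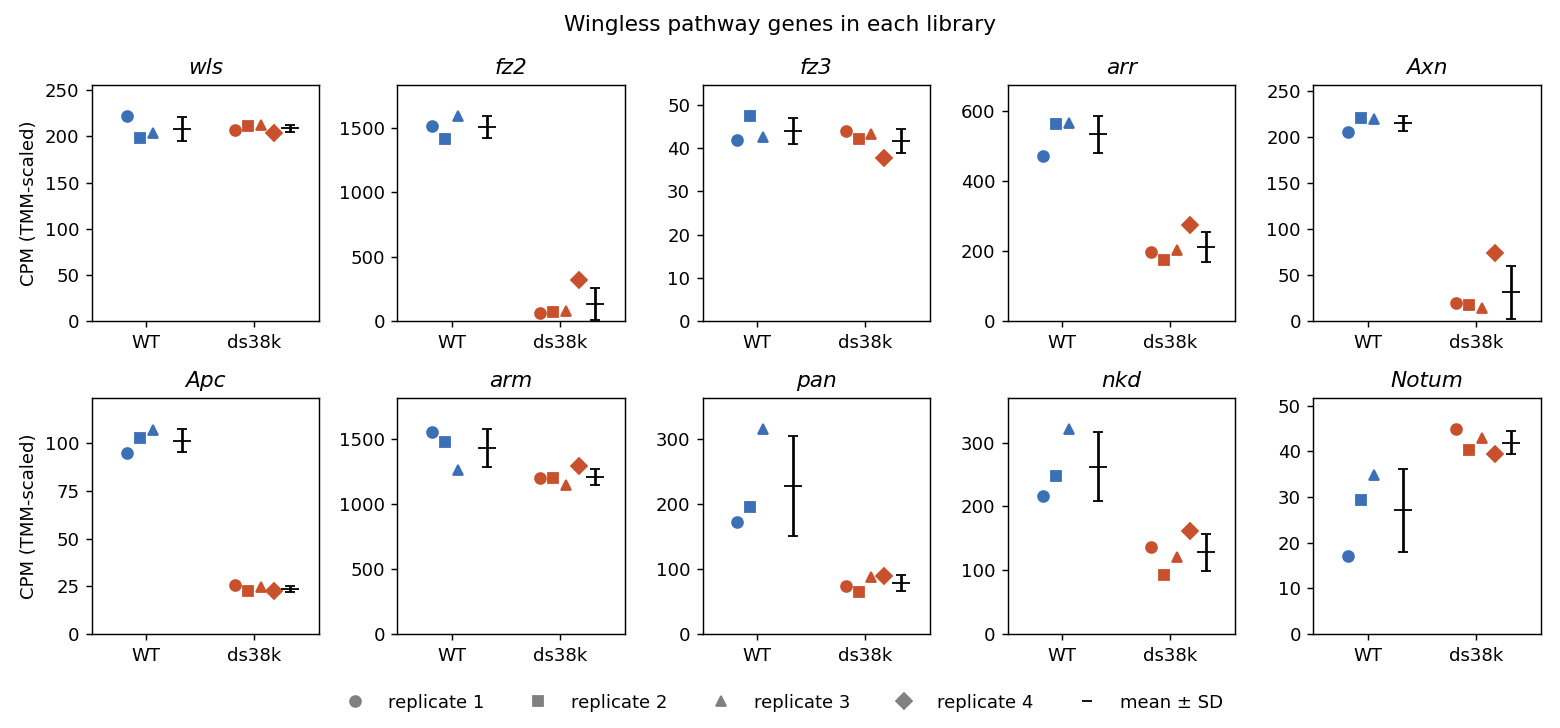
Level of each of the 10 genes in CPM (vertical axes, each from 0) in the 3 WT and 4 ds38k libraries, with the replicate number as symbol and the mean ± SD in black. The ds38k points of fz2 lie between 64.9 and 319 CPM, far below the WT points, with replicate 4 highest, while those of wls lie among the WT points.

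Among the receptors, fz2 (FBgn0016797), which encodes a high-affinity Wingless receptor, lies at dm6 3L:19140975-19235373 on the minus strand. Its level was 1515, 1417 and 1590.0 CPM in the WT libraries and 64.9, 67.0, 81.7 and 319 CPM in the ds38k libraries, each in the order of the replicate numbers (as for all genes below). Every ds38k library was below every WT library, and replicate 4 held 4.49 times the mean of the other ds38k libraries. WT averaged 1507 ± 86.8 CPM (SD, n = 3) and ds38k 133 ± 124 CPM (SD, n = 4), which is a log2 change of -3.50 ± 0.62 (SE; edgeR adjusted p = 0.0019). An exact two-sided permutation test on the log2 levels gave p = 0.0286, the smallest that the 35 ways to divide the libraries allow. Without ds38k replicate 4 the change was -4.40 ± 0.13 (edgeR adjusted p = 1.6e-06). With the length trend removed it came to -2.43 ± 0.56 (edgeR adjusted p = 0.0105), and -3.25 ± 0.11 when replicate 4 was left out as well. The fall of fz2 was thus called in each of these fits, with a size that rested on replicate 4.

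In that library fat-body markers summed to 81.6 CPM, against 904 to 3070 CPM in ds38k replicates 1 to 3, and pouch markers to 918 CPM, against 463 to 624 CPM. For most other marker lists too, ds38k replicate 4 had the lowest or highest sum of its group (see above). Whether any of these moved fz2 was not tested. Among 6570 tested genes that averaged 10 CPM or more, 186 (2.83%) were at least 3-fold higher in ds38k replicate 4 than in the mean of replicates 1 to 3. Of these, 157 had a log2 fold change below 0 between the groups, and the share below 0 over all 6570 is not given here. Of the 186 genes, 72 were called lower. The share called lower among the 6570 is not given here, and over all 9294 tested genes it was 30.8%. Both fz2 and Axn are among the 72.

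The gene fz3 (FBgn0027343; X:769945-784222, plus strand) encodes a Frizzled protein of low signalling activity that is known as an induced target of Wingless. It was at 41.8, 47.5 and 42.6 CPM in WT and at 43.9, 42.1, 43.2 and 37.7 CPM in ds38k, so the groups overlapped. Its log2 fold change of -0.08 ± 0.09 (SE) did not pass the test (edgeR adjusted p = 0.486), with a 95% interval from -0.29 to 0.14. After length correction it was -0.04 ± 0.10 (edgeR adjusted p = 0.749). Changes inside that interval could not be told from none, and the sign of fz3 depended on the scaling (0.19 with upper-quartile factors).

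The co-receptor gene arr (FBgn0000119; 2R:13453640-13483229, minus strand), the fly LRP5/6, had 472, 562 and 567 CPM in WT and 196, 175, 202 and 274 CPM in ds38k. No ds38k library reached the lowest WT library, and replicate 4 was again the highest of its group. In log2 terms arr changed by -1.33 ± 0.16 (SE; edgeR adjusted p = 3.0e-04). Relative to other transcripts of its length (6024 bases) the value was 0.10 ± 0.14 (edgeR adjusted p = 0.564), with a 95% interval from -0.22 to 0.43.

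Of the destruction complex, Axn (FBgn0026597; 3R:30022842-30035311, plus strand), the scaffold that brings the kinases to Armadillo, was at 206, 220.5 and 219.6 CPM in WT. In ds38k it was at 19.9, 17.2, 14.1 and 74.1 CPM. The groups did not overlap, and replicate 4 held 4.34 times the mean of the other ds38k libraries, as it did for fz2. The log2 value of the change was -2.78 ± 0.59 (SE; edgeR adjusted p = 0.0045), and the exact two-sided permutation test gave p = 0.0571. Leaving out ds38k replicate 4 gave -3.66 ± 0.14 (edgeR adjusted p = 2.4e-06). The length-corrected value was -1.76 ± 0.54 (edgeR adjusted p = 0.0309), or -2.56 ± 0.14 without replicate 4. The exons of Axn share 302 bases with the antisense RNA gene asRNA:CR44045 and 72 with ZIPIC on the other strand. Reads of those stretches may be shared, since no source used here says that strand was kept.

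The Apc gene (FBgn0015589; 3R:28832301-28844748, minus strand) encodes the other large scaffold of the complex, the fly counterpart of the tumour suppressor APC. Its values were 94.7, 102 and 107 CPM in WT and 25.5, 22.4, 24.6 and 22.3 CPM in ds38k. The replicates of each group lay close together (coefficient of variation 6.14% in WT and 6.65% in ds38k), and replicate 4 did not stand out. Apc changed by -2.10 ± 0.09 in log2 terms (edgeR adjusted p = 3.5e-06), which shrank to -0.43 ± 0.07 (edgeR adjusted p = 0.0034) with the length trend removed. Apc has the longest transcripts of the 10 genes (8441 bases at the median).

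The effector arm (FBgn0000117; X:1891401-1900646, minus strand) encodes beta-catenin, which also links E-cadherin to the actin cytoskeleton. It was at 1554, 1481 and 1268 CPM in WT and at 1202, 1199, 1150 and 1298 CPM in ds38k. The highest ds38k library passed the lowest WT library. Its log2 fold change was -0.24 ± 0.10 (SE; edgeR adjusted p = 0.0572), and its direction depended on the processing: -0.29 and called with DESeq2 (adjusted p = 0.0082), 0.02 with upper-quartile factors, and 0.31 ± 0.11 and called with the length trend removed (edgeR adjusted p = 0.0498). Leaving out WT replicate 3 (-0.33, edgeR adjusted p = 0.0151) or ds38k replicate 4 (-0.28, edgeR adjusted p = 0.0405) brought the call of a fall. So did RLE factors (-0.29, edgeR adjusted p = 0.0241) and the removal of rRNA genes (-0.26, edgeR adjusted p = 0.0425). The exons of arm share 82 bases with mRpL16 on the other strand.

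The nuclear mediator pan (FBgn0085432; 4:69326-114270, plus strand) had 172, 195 and 316 CPM in WT and 73.2, 64.6, 87.4 and 89.3 CPM in ds38k. All WT libraries were above all ds38k libraries, with WT replicate 3 well above the other two. On the log2 scale pan fell by 1.53 ± 0.22 (SE; edgeR adjusted p = 7.6e-04), and by 1.23 ± 0.15 without WT replicate 3. Corrected for length it was at -0.52 ± 0.18 and missed the threshold (edgeR adjusted p = 0.0536). Its 9 annotated transcripts range from 3023 to 8472 bases, so that the length assigned to it is uncertain. The exons of pan share up to 443 bases with an annotated transposable element on the same strand and up to 352 on the other.

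The secretion factor wls (FBgn0036141; 3L:11166620-11169625, minus strand) was the steadiest of the 10, at 222, 198 and 204 CPM in WT and 207, 212, 212 and 204 CPM in ds38k. The ds38k libraries lay within the range of the WT libraries. Its means were 208 ± 12.8 (SD, n = 3) and 209 ± 3.80 CPM (SD, n = 4), and the log2 fold change of 0.0046 ± 0.07 (SE) had a 95% interval from -0.16 to 0.17 (edgeR adjusted p = 0.958). It was 0.18 ± 0.08 with the length trend removed (edgeR adjusted p = 0.0982) and 0.27 with upper-quartile factors (edgeR adjusted p = 0.0219), where the median of all genes was 0.33.

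Of the feedback inhibitors, nkd (FBgn0002945; 3L:19003741-19045449, minus strand) encodes a cytoplasmic protein that binds Dishevelled. It lies 95.5 kb from fz2 on the same arm. It was at 217, 248 and 322 CPM in WT and at 136, 92.9, 121 and 162 CPM in ds38k, without overlap. Its log2 change was -1.04 ± 0.21 (SE; edgeR adjusted p = 0.0034). Set against transcripts of its length the value was 0.14 ± 0.16 (edgeR adjusted p = 0.503), with a 95% interval from -0.23 to 0.51.

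Notum (FBgn0044028; 3L:16023480-16032752, plus strand) encodes a secreted carboxylesterase that removes the lipid from Wnt proteins. It was the only one of the 10 that was called higher as measured, from 17.0, 29.3 and 34.9 CPM in WT to 45.0, 40.2, 42.9 and 39.4 CPM in ds38k. Every ds38k library was above every WT library, and WT replicate 1 was the lowest of all. The rise in log2 terms was 0.63 ± 0.23 (SE; edgeR adjusted p = 0.0412), higher in 4 of 4 ds38k libraries, and the exact two-sided permutation p was 0.0286. That call was lost without WT replicate 2 (edgeR adjusted p = 0.0821) and without ds38k replicate 1, 2 or 3 (0.0821, 0.0631 and 0.0691), and the value fell to 0.39 without WT replicate 1 (0.0248). Relative to transcripts of its length (3792 bases) Notum rose by 1.53 ± 0.22 (edgeR adjusted p = 0.0016). The RLE factors gave 0.58 and no call (edgeR adjusted p = 0.0575). The exons of Notum share 103 bases with the ncRNA gene mir-4941 on the same strand.

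**Figure D2:**
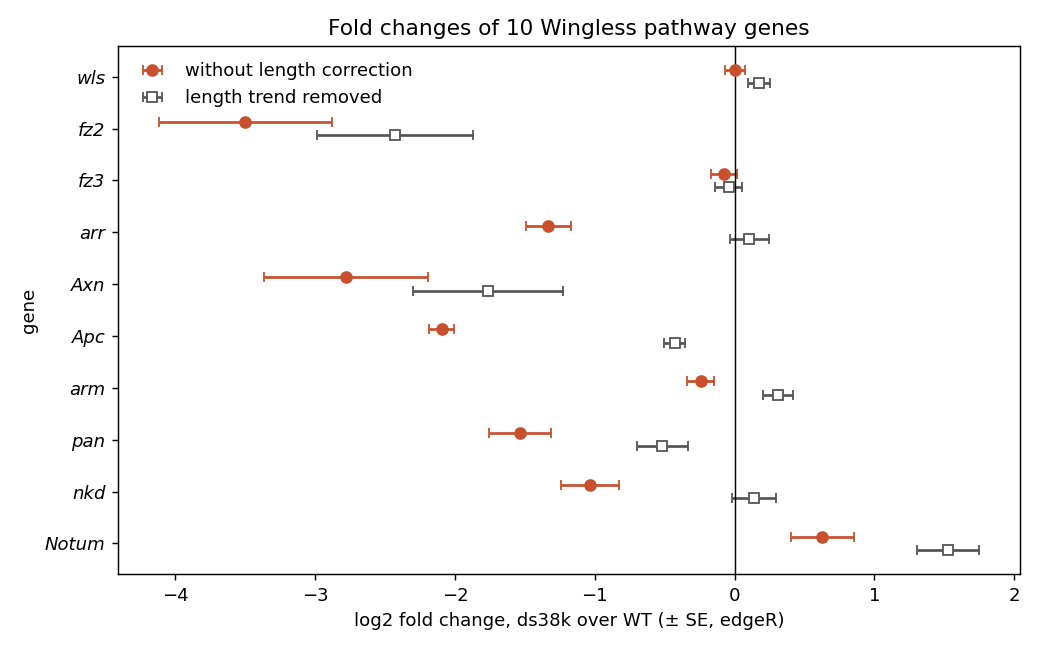
Log2 fold change of ds38k over WT with its SE (horizontal axis) for the 10 genes, as measured (filled circles) and with the length trend of each library removed (open squares). The falls of arr and nkd move from -1.33 and -1.04 to 0.10 and 0.14, and those of fz2 and Axn from -3.50 and -2.78 to -2.43 and -1.76.

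**Figure D3:**
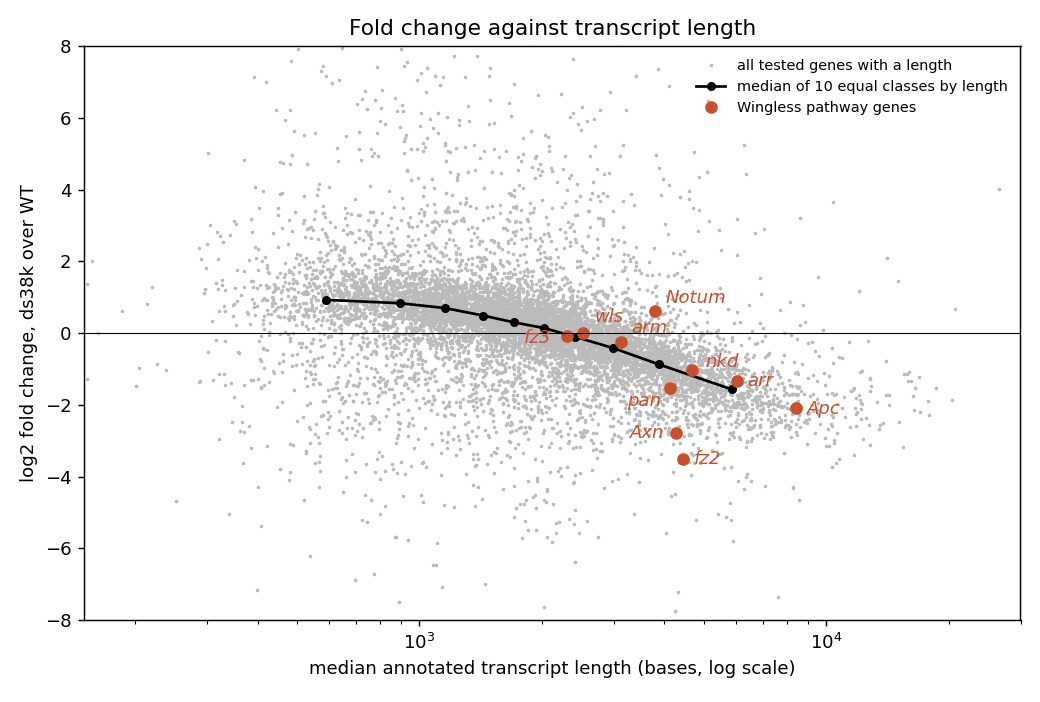
Log2 fold change of ds38k over WT (vertical axis) against the median annotated transcript length in bases (log axis) for tested genes in grey, with the median of 10 equal length classes in black and the 10 Wingless genes in red; 53 genes lie outside the plotted range. The class median runs from 0.92 to -1.57, Notum lies above the line, and fz2 and Axn lie below it.

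Set on a common scale of CPM per kilobase of the median annotated transcript, the most abundant of the 10 transcripts in WT was arm at 459 ± 47.6 (SD, n = 3), followed by fz2 at 339 ± 19.5. Both stood above all others in every WT library. The next were arr at 88.6 ± 8.87 and wls at 82.4 ± 5.06, whose ranges overlapped, then nkd at 56.0 ± 11.5, pan at 55.1 ± 18.7 and Axn at 50.3 ± 1.89, which overlapped as neighbours too. The lowest levels were those of fz3 at 19.1 ± 1.34, Apc at 12.0 ± 0.737 and Notum at 7.14 ± 2.41 CPM per kilobase, in that order without overlap. In ds38k arm stayed first at 388 ± 19.8 (SD, n = 4) and wls came second at 82.7 ± 1.50, both without overlap with the next. The level of fz2 was 30.0 ± 28.0 CPM per kilobase, and it overlapped with arr at 35.2 ± 7.21 and nkd at 27.3 ± 6.14. In ds38k replicates 1 to 3 alone fz2 averaged 16.0 ± 2.05 CPM per kilobase (SD, n = 3), below the means of nkd (24.9), fz3 (18.7) and pan (18.2) in these libraries. Then followed pan at 19.0 ± 2.85, fz3 at 18.1 ± 1.21, Notum at 11.05 ± 0.673, Axn at 7.32 ± 6.69 and Apc at 2.81 ± 0.187. Without replicate 4 the level of Axn was 3.99 ± 0.678, still between Notum and Apc. None of these levels is corrected for the length trend, which the order in ds38k thus includes. In log2 fold change that trend was -1.44 for arr, -1.17 for nkd and -1.67 for Apc, beside -0.17 for wls.

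The Frizzled genes were set against each other within each library, where the scaling between libraries plays no part. Of the length-scaled counts of fz, fz2, fz3 and fz4, fz2 held 81.7%, 78.9% and 78.0% in the WT libraries. In the ds38k libraries it held 19.4%, 20.6%, 21.9% and 54.0%. The share of fz3 was 4.50% ± 0.550 (SD, n = 3) in WT and 21.3% ± 6.13 (SD, n = 4) in ds38k, and that of fz, the receptor best known from planar polarity, was 10.4% ± 2.46 and 30.0% ± 5.87. The transcripts of fz themselves did not rise: they averaged 171 CPM in WT and 99.8 CPM in ds38k, a log2 change of -0.77 ± 0.19 (edgeR adjusted p = 0.0088), or 0.13 ± 0.16 with the length trend removed (0.536). A share of one gene rises where that of another falls, since the 4 shares sum to the whole. These shares were computed after the level of fz2 had been seen and were not tested. They take each gene's length from the annotation and are not corrected for the length trend.

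**Figure D4:**
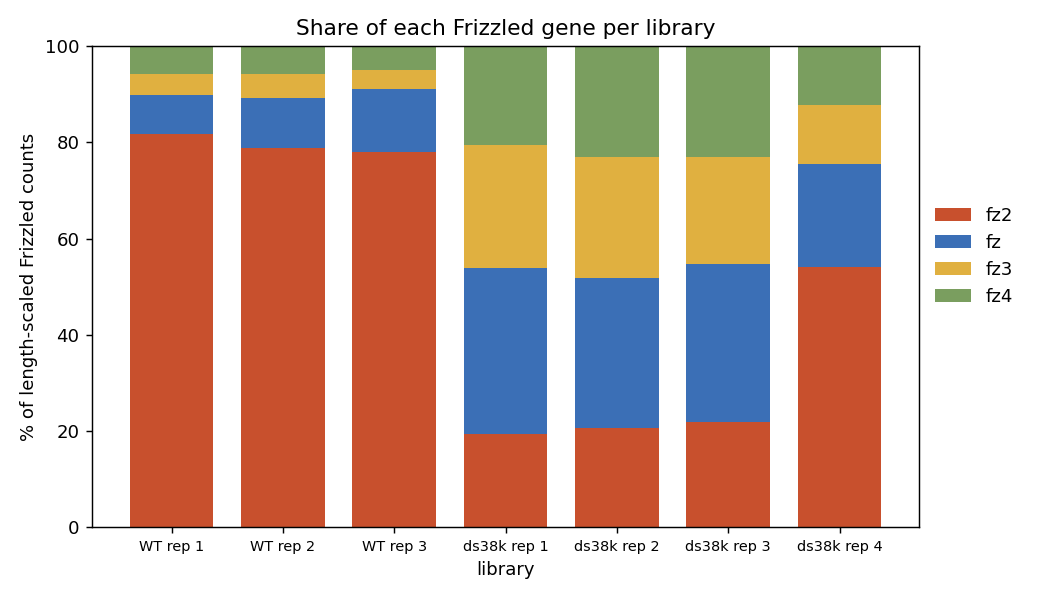
Share of each of the 4 Frizzled genes in the summed length-scaled Frizzled counts (vertical axis, percent) of each library. The share of fz2 is 78.0% to 81.7% in WT, 19.4% to 21.9% in ds38k replicates 1 to 3 and 54.0% in ds38k replicate 4.

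Count ratios of paired genes within a library were compared over the 7 libraries, with 6 ratios in the family. The pairs were chosen with earlier results of these data known, so their p-values describe the data and are not independent tests. The ratio of fz3 to fz2 was 0.0276, 0.0335 and 0.0268 in WT and 0.677, 0.628, 0.529 and 0.118 in ds38k, a difference of 3.79 on the log2 scale (exact two-sided permutation p = 0.0571, the same after Benjamini-Hochberg adjustment over the 6 ratios). The ratio of arr to fz2 was higher in ds38k by 2.52 (exact permutation p = 0.0571) and that of Axn to arm lower (-2.90, exact permutation p = 0.0571). The ratio of Apc to its paralog Apc2 was 0.567, 0.625 and 0.714 in WT and 0.277, 0.258, 0.281 and 0.251 in ds38k, a difference of -1.25 (exact permutation p = 0.0286). Notum over wls differed by 0.68 (exact permutation p = 0.0286), or by 0.33 without WT replicate 1, and nkd over fz3 by -0.97 (exact permutation p = 0.0571). The groups did not overlap in any of the 6 ratios, but after adjustment each p was 0.0571, which misses 0.05. After length correction the differences were 2.71, 2.85, -2.39, -0.53 and 1.40 in the order given, and nkd over fz3 turned to 0.18 (exact permutation p = 0.543).

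Beyond the 10 genes, 65 further genes of the pathway were in the table and 63 were tested, of which 15 were higher and 31 lower, with a median log2 fold change of -0.49, where 34.2% of all tested genes were higher and 30.8% lower. These counts were 24 higher and 12 lower with the length trend removed, with a median of 0.13, beside 27.6% and 19.1% of all genes. The counts by role below are read against the same shares, and differences between roles were not tested. Of 14 genes for ligands and their secretion 8 were higher and 2 lower as measured (median 0.67), and 9 and 0 with the length trend removed. Snx3, a sorting nexin that recycles Wntless with the retromer, rose by 0.80 ± 0.07 (SE; edgeR adjusted p = 5.2e-05), and the cargo adaptor genes of the p24 family opm, p24-1 and eca rose by 1.17 ± 0.10, 1.21 ± 0.13 and 1.33 ± 0.17. With the length trend removed these 4 were at 0.54 ± 0.06, 0.68 ± 0.09, 0.78 ± 0.11 and 0.66 ± 0.16, and all were called. Of the retromer subunit genes, picked after their values were seen, Vps26 rose by 0.46 ± 0.08 and by 0.64 ± 0.09 with the correction, whereas Vps35 turned from -0.33 ± 0.06 to 0.26 ± 0.08 (edgeR adjusted p = 0.0027 and 0.0371). The ligand gene wg itself, shown because it encodes Wingless, was at -0.20 ± 0.15 (edgeR adjusted p = 0.279), or 0.23 ± 0.14 with the correction (0.204).

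Of 7 other receptor and cell surface genes tested, 0 were higher and 5 lower (median -0.77), and 2 and 2 with the length trend removed. The glypican gene dally, which shapes the spread of Wingless and Dpp, was at -1.72 ± 0.12 (SE; edgeR adjusted p = 1.9e-05) and at -0.77 ± 0.09 with the correction. The other glypican gene, dlp, was at -0.98 ± 0.11 and at -0.11 ± 0.09 with the correction, where it was not called (edgeR adjusted p = 0.346). The gene drl, which encodes a Ryk-type Wnt receptor, fell in both (-0.88 ± 0.13, and -0.34 ± 0.10 with the correction). The Frizzled gene fz4 turned from -0.47 ± 0.09 to 0.42 ± 0.11 (edgeR adjusted p = 0.0030 and 0.0185).

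Of 16 other transducers and destruction complex genes, 3 were higher and 9 lower (median -0.43), and 5 and 5 with the length trend removed (median 0.13). The transducer gene dsh, whose product passes the signal of Frizzled on to Axin, had the lowest fold change of the list, at -4.32 ± 0.20 (SE; edgeR adjusted p = 4.8e-06) and -3.93 ± 0.22 with the correction. The deubiquitinase gene Usp7 was at -1.78 ± 0.09 and the paralog Apc2 at -0.85 ± 0.07, while Roc1a, which encodes a RING subunit of ubiquitin ligases, rose by 1.34 ± 0.09. With the correction Usp7 was at -0.46 ± 0.08 and Roc1a at 0.80 ± 0.07, and both were called. Apc2 was at 0.10 ± 0.09 with the correction (edgeR adjusted p = 0.389), beside -0.43 ± 0.07 for Apc. Among genes picked after their values were seen, sgg, the GSK3 kinase of the destruction complex, fell in both fits (-3.04 ± 0.32, and -2.51 ± 0.27 with the correction), as did the casein kinase gene dco (-3.93 ± 0.33 and -3.33 ± 0.28). The kinase gene CkIalpha rose, by 0.40 ± 0.08 and 0.36 ± 0.08.

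Of 12 tested nuclear factors 1 was higher and 8 were lower (median -1.60), and 2 and 3 with the length trend removed (median -0.27). The Mediator kinase module gene skd was at -1.69 ± 0.11 (SE; edgeR adjusted p = 1.9e-05) and at 0.06 ± 0.08 with the correction. The acetyltransferase gene nej fell in both fits (-2.56 ± 0.23, and -0.80 ± 0.15 with the correction), as did osa, a subunit gene of the Brahma chromatin remodeller (-3.73 ± 0.34 and -1.97 ± 0.36). The ATPase gene brm was at -1.77 ± 0.17, and at -0.45 ± 0.16 with the correction (edgeR adjusted p = 0.0548).

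Of 14 reported targets of Wingless in the disc 3 were higher and 7 lower (median -0.66), and 6 and 2 with the length trend removed (median -0.01). The proneural genes sc and ac and the sensory organ gene sens rose by 1.89 ± 0.14, 1.47 ± 0.21 and 1.16 ± 0.22 (SE; edgeR adjusted p = 3.1e-05, 7.2e-04 and 0.0026), and all 3 were also called with the correction, at 1.53 ± 0.15, 0.77 ± 0.20 and 1.29 ± 0.23. Sox15, a transcription factor gene of the hinge, fell in both fits (-1.16 ± 0.09, and -0.34 ± 0.10 with the correction).

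**Figure D5:**
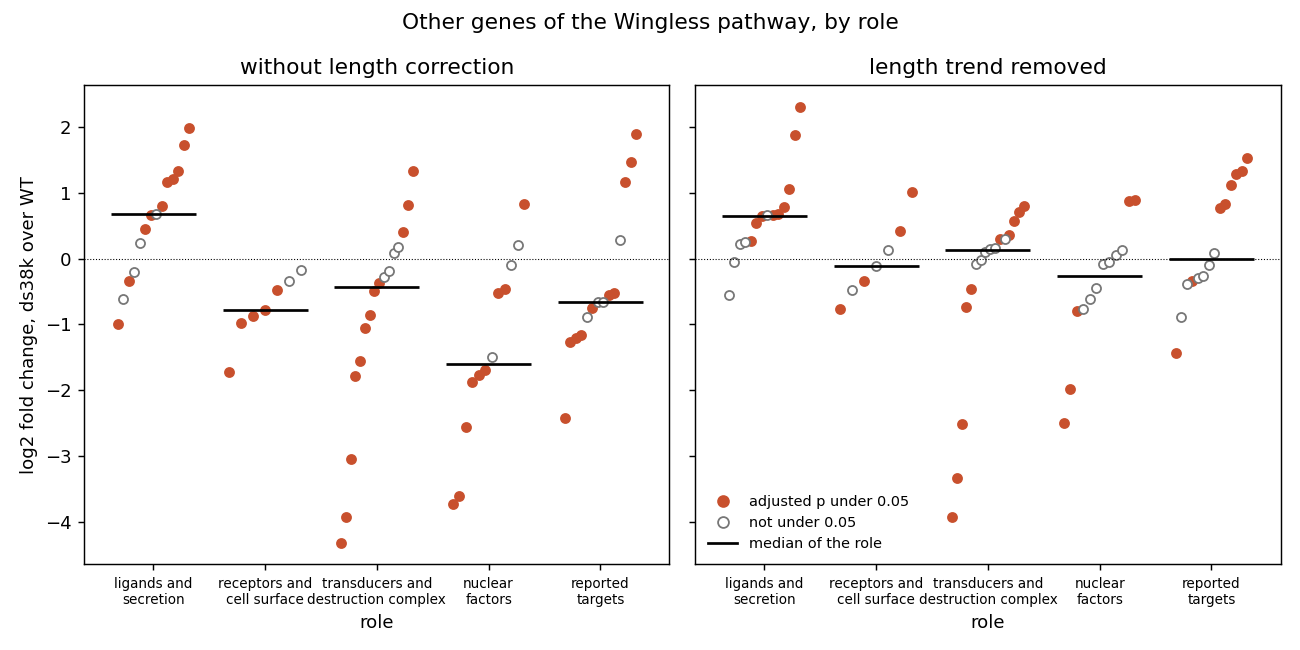
Log2 fold change of ds38k over WT (vertical axis) for the 63 other tested Wingless pathway genes by role, as measured (left) and with the length trend removed (right), with red points for an adjusted p under 0.05 and black bars for the median of the role. The median of the nuclear factors moves from -1.60 to -0.27, while that of ligands and secretion is 0.67 and 0.65.

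The tested gene whose pattern over the 7 libraries was closest to that of a member, by the root mean square distance of centred log2 CPM, was not another member in any case given here. The search covered all 9294 tested genes, few of them members, so this outcome was likely beforehand. The distance also takes in the difference between the groups. The closest were CG10555 for fz2 (distance 0.27), mbt for Axn (0.13), CG3764 for Apc (0.051), Cad86C for arr (0.066), Sema1a for pan (0.085), lncRNA:CR32385 for nkd (0.11), CG5626 for Notum (0.10), zf30C for fz3 (0.024) and CG2162 for arm (0.033). The distance for fz2 was the largest of those given.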

How the data were processed

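The values are the estimated counts of each gene as deposited, unscaled. The submitters' processing notes name dm6 as build and list FastQC 0.10, Trimmomatic 0.33, Salmon 1.80 and edgeR as tools, while annotation release, strand and RNA selection are not given in the sources used. Per the labels' protocols, 10 ng of RNA went into each library, read over 150 bases from both ends. Salmon assigns ambiguous reads by a model, so overlapping genes have uncertain counts, and PCR duplicates cannot be recognised. All columns were mapped to samples by the labels. Replicates differed beyond sampling noise (chi-square per degree of freedom 37.4 to 240.0), and each was counted as 1 sample.

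Counts were rounded to whole numbers. Genes were filtered with filterByExpr (minimum count 10) and tested with edgeR 4.0.16 in R 4.3.3 over all 7 libraries (TMM factors, quasi-likelihood F-test of genotype, Benjamini-Hochberg adjustment over 9294 genes, threshold 0.05). Standard errors are the size of the log2 fold change over the square root of F. Log2 CPM used a prior count of 2; summed marker levels use the total count. For the length correction, each library's deviations of log2 CPM from the mean of the gene were modelled on log2 median transcript length (Ensembl annotation BDGP6.54, dm6 coordinates, 9224 tested genes with a length) with a natural spline of 5 degrees of freedom, which entered edgeR as an offset. For single values, exact two-sided permutation tests ran over all 35 divisions of the libraries. DESeq2 1.42.0 was an alternative. Others were RLE and upper-quartile factors, no filter, no rRNA genes, a replicate block and each library left out. The edgeR fit without length correction was also run on simulated counts. These held no length trend and no library set apart, so that run does not bear on either. Figures were drawn with matplotlib 3.10.9. No sequence was used here.

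The members, lists and ratios were chosen with earlier results of these data known. The text names all 10 members, ds, up to 4 genes with the smallest p of each role list, the gene closest in pattern to each member (that for wls is not reported here), and the second gene of each ratio. Other names (28SrRNA:CR45837, wg, fz, Vps26, Vps35, sgg, dco and CkIalpha) were picked after their values were seen. The list members WntD and dys were not found under these symbols.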

Additional observations from a re-analysis of the deposited data

Results flagged for a closer look

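The highest or lowest ds38k library stood apart from the other 3 by Dixon's criterion in 4 of 37 genes and ratios checked. In each case it was ds38k replicate 4. Chance alone sets apart about 5% of such groups if they are independent. The 37 are not, since all rest on the same 4 libraries. The gene fz2 was at 319 CPM in ds38k replicate 4, Axn at 74.1 CPM and the Ryk-type receptor gene drl at 389 CPM. The ratio of Axn to arm was 0.0571 there, and it holds the same Axn counts, so it is not a separate result. Groups of 3 libraries, as in WT, were not tested in this way.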

How the results depend on the processing

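The count of members called higher was 1 as reported, 2 with upper-quartile factors, with the length trend removed and with the replicate block plus length correction, and 0 with RLE factors; leaving out each library in turn gave 0 to 1. The count called lower was 6 as reported. It was 7 with RLE factors, DESeq2, the replicate block or no rRNA genes, and without WT replicate 3 or ds38k replicate 4. With the replicate block plus length correction it was 4, and with the length trend removed alone it was 3. It was also 3 with the length trend removed and without ds38k replicate 4, an alternative chosen after seeing the data. For the other Wingless genes, 15 higher and 31 lower became 24 and 12 with the length trend removed, 25 and 18 also without ds38k replicate 4, and 26 and 20 with the replicate block plus length correction. Over all genes the lower calls went from 2859 to 1760 with the length trend removed. Whether the replicate numbers pair the libraries is not given. Same-numbered deviations correlated at 0.137, 0.0031 and 0.0982, and those of unlike number at -0.108 to 0.0445. With so few libraries these values cannot decide it. With the replicate block alone arm was called lower (-0.27, edgeR adjusted p = 0.0302), and with the block plus length correction pan was (-0.52, edgeR adjusted p = 0.0128).

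Reversed values were, for wls, -0.044 (RLE), -0.0036 (no filter), -0.047 (DESeq2), -0.0093 (no rRNA genes) and a range from -0.037 to 0.060 with each library left out in turn. For fz3 they were 0.19 (upper quartile). With the length trend removed alone, with the block, and without ds38k replicate 4, the values were 0.10 for arr (first only), 0.018 and 0.018 for fz3 (last pair), 0.31, 0.31 and 0.31 for arm, 0.14, 0.041 and 0.045 for nkd, 0.10, 0.14 and 0.14 for Apc2, 0.42, 0.46 and 0.47 for fz4, and 0.063, 0.036 and 0.048 for skd. Upper-quartile factors gave 0.019 for arm, and the ratio of nkd to fz3 turned to 0.18 with the length trend removed. Among these, fz4 was called in all 3 length-corrected fits and arm in the first and second. The cause was not tested. Each of the 10 members had 343 or more counts in each library. The motif and protein comparisons that had been planned were not run.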
